A study of Mus musculus with 10 samples.

Results

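BTB zinc finger genes encode transcription factors that join an amino-terminal BTB domain to carboxy-terminal C2H2 zinc fingers, and Zbtb7a, the gene deleted in the embryos studied, belongs to this family. Its relatives outside the Zbtb7 group were taken by symbol: every gene named Zbtb followed by a number, and Bcl6, Bcl6b, Hic1, Hic2 and Patz1, without Zbtb7a, Zbtb7b and Zbtb7c. This gave 43 of the 24814 genes in the table. Of them 42 are BTB zinc finger genes. Zbtb8os carries the symbol of a neighbour but encodes an archease-type factor of the tRNA ligase complex, with neither domain. It was kept because the rule names it.

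Polyadenylated RNA from the cortices of 10 mouse embryos, taken at embryonic day 12, was sequenced. In the 5 libraries called cKO (conditional knockout) the genotype was Emx1 Cre/+ with Zbtb7a fl/fl, and in the 5 called WT it was Emx1 Cre/+ with Zbtb7a +/+, so the WT embryos carry the driver too. Emx1-Cre acts in progenitors of the dorsal telencephalon and the cells they produce, and vessels, blood, meninges and ventral neurons in the same tissue keep the floxed allele intact. Litter is the batch that the labels name. Litter 3 gave cKO 4, WT 3 and WT 4, litter 5 gave cKO 5 and WT 5, and litter 1 gave cKO 1, cKO 2, cKO 3, WT 1 and WT 2. The values are TPM, transcript abundances scaled to gene length and to the same total in each library. They can therefore be compared between genes, and they keep no read depth.

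The BTB domain lets these proteins pair with themselves or with each other, and it is the surface that recruits corepressors such as BCOR and histone deacetylases, while the fingers read DNA. Most members studied so far repress transcription. In the developing cortex Zbtb18, also called RP58, is needed in mice for the step from intermediate progenitor to neuron and represses Id genes and Neurog2. Bcl6 drives neurogenesis by silencing Notch targets such as Hes5, and Zbtb20 acts in hippocampal and later astrocyte identity. The comparison of cKO with WT asks whether the relatives of Zbtb7a differ in level when Zbtb7a is deleted. The comparison of litters asks whether these genes differ in level between litters, over both genotypes.

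Zbtb7a itself had 4.57, 3.52, 4.73, 5.96 and 3.50 TPM in cKO 1 to 5, against 12.5, 11.2, 7.20, 7.46 and 9.54 TPM in WT 1 to 5. The genotypes did not overlap, with all cKO libraries the lower ones, and the difference of log2(TPM + 1), with litter in the fit, was -0.99, which did not pass over all genes (limma, adjusted p = 0.615). Defining genes of dorsal cortex were present in all 10 libraries, with 119 to 209.95 TPM of Emx1 and 43.7 to 141 TPM of Eomes. RNA of other cells was present as well. The 8 globin genes held 4.17 to 5.57% of all TPM in litter 3 and 1.73 to 2.64% in the other 7 libraries. The summed level of 8 mesenchyme markers was 458, 1027 and 482 TPM in cKO 4, WT 3 and WT 4 of litter 3, 211 and 289 TPM in cKO 5 and WT 5, and 207 to 325 TPM in litter 1. It was thus higher in litter 3 than in every other library, and highest in WT 3. Tissue from beside the cortex was uneven too. The sum of 8 ventral telencephalon markers was 72.2, 39.6 and 0.88 TPM in cKO 4, WT 3 and WT 4, and 1.06 and 165 TPM in cKO 5 and WT 5. The sum of 6 choroid plexus markers ran from 4 TPM in cKO 2 to 775 TPM in cKO 5, with 290 TPM in WT 5. The part of such tissue in the genotype differences within litters was not tested. In bulk tissue, fewer cells of a type and less RNA in each cell cannot be told apart.

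The 250 bases before the start of 5 members are printed here, for the 3 most abundant ones, which also lay lower in litter 3 than in litter 1, and for Zbtb25 and Zbtb1, which leave from a shared stretch of chromosome 12 in opposite directions. The sequences are RefSeq's for GRCm38.p6, read 5′ to 3′ along the gene up to its start in that annotation, with GC boxes (GGGCGG or its complement CCGCCC, matches may overlap) in capitals. Zbtb12 is at chr17:34894309-34894558 on the plus strand and holds 2 GC boxes. Zbtb18 is at chr1:177442101-177442350 on the plus strand and holds 12, in a stretch with 47 CpG dinucleotides. Patz1 is at chr11:3288881-3289130 on the plus strand, with 1 GC box and 11 CpG. Zbtb25 is at chr12:76369561-76369810 on the minus strand with 1 GC box, and Zbtb1 is at chr12:76370270-76370519 on the plus strand with 2.
Zbtb12: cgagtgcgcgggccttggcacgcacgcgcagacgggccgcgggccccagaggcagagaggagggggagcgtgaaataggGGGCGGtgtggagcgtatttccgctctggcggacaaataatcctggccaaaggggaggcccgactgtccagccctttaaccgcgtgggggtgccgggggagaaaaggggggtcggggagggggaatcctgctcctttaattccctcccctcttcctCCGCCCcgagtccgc
Zbtb18: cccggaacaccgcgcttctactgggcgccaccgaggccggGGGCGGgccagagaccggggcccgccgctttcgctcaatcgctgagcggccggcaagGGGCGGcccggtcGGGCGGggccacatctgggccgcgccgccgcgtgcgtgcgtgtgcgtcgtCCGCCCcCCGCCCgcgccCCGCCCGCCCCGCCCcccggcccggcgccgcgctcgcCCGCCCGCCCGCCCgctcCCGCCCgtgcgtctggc
Patz1: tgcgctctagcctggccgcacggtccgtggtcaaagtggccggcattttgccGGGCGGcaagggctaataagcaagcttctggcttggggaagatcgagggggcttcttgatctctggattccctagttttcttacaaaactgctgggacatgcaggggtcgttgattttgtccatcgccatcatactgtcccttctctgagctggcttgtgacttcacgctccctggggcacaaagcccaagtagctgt
Zbtb25: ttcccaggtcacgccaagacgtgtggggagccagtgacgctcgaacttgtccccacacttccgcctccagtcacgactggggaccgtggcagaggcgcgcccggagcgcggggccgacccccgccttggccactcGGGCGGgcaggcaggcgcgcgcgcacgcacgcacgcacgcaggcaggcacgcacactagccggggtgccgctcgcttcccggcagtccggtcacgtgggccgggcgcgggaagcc
Zbtb1: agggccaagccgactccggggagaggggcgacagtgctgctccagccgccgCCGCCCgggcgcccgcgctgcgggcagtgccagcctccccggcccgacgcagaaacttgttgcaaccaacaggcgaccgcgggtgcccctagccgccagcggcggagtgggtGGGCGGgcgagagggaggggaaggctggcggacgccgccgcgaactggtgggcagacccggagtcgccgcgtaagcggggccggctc
The Zbtb18 window also holds CATCTGG, the core of the E-box-like element that the Zbtb18 protein is known to bind, 122 bases before the start. It is shown in capitals with its flanks, at chr1:177442207-177442243.
Zbtb18 element: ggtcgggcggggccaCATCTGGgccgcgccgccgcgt

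Promoter windows of 300 bases, 250 before and 50 after the start, were found for 38 of the 43 members. No entry was matched for Zbtb10, Zbtb16, Zbtb40, Zbtb48 and Bcl6b. The members' windows were rich in CpG, with a median of 25 per window, beside 21 in the windows of 9618 other tested genes and 7 in all 27025 windows of the table. GC boxes, searched on both strands, were in 71.05% of the members' windows (27 of 38), beside 66.85% of the other tested genes and 35.92% of all windows. The ETS-type core CCGGAAG was in 28.95%, 18.18% and 9.136% of these sets, and TATAAA in 5.263%, 6.311% and 14.16%. CATCTGG was in the windows of 3 members, Zbtb18, Zbtb38 and Zbtb46, which is 7.895% beside 3.109% of the other tested genes and 4.448% of all windows. The Kaiso site TCCTGCNA was in that of Zbtb37 alone among the members, 2.632% beside 4.512% and 4.921%. These are matches of letters in a window and carry no measurement of binding. Zbtb18 had the highest CpG count of any member window, 51, and Zbtb46 the lowest, 1. The starts are RefSeq's, and the GENCODE M21 annotation used below places some of them elsewhere. The windows of Zbtb12, Patz1, Zbtb1, Zbtb6, Zbtb8os, Zbtb20, Zbtb22, Zbtb38 and Zbtb46 lie wholly inside the gene as GENCODE M21 gives it.

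The members ranged from Zbtb12, with a mean of 109 TPM over the 10 libraries, down to Zbtb32, with 0.09 TPM. Above 100 TPM stood 1 member, 19 lay between 10 and 100 TPM, 19 between 1 and 10 TPM, and 4 below 1 TPM. The 3 highest, Zbtb12, Zbtb18 and Patz1, held 37.6% of the TPM summed over the family. After Zbtb8os, the next in order were Zbtb17 (36.4 TPM), Zbtb45 (34.9), Zbtb5 (32.4), Zbtb22 (32.0), Zbtb33 (30.0) and Zbtb14 (27.3). The order is a gradient rather than a set of classes. Of the 42 pairs of neighbours in it, only Patz1 and Zbtb8os had library ranges that did not overlap. The summed TPM of all 43 members lay between 641 and 933 in the cKO libraries and between 589 and 911 in the WT libraries. It lay between 589 and 641 in litter 3, 691 and 837 in litter 5, and 866 and 933 in litter 1, so the litters did not overlap and the genotypes did. The 3 highest members weigh most in this sum. Of the 13833 genes tested below, 30.1% also had every library of litter 3 below every library of litter 1.

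**Figure D1:**
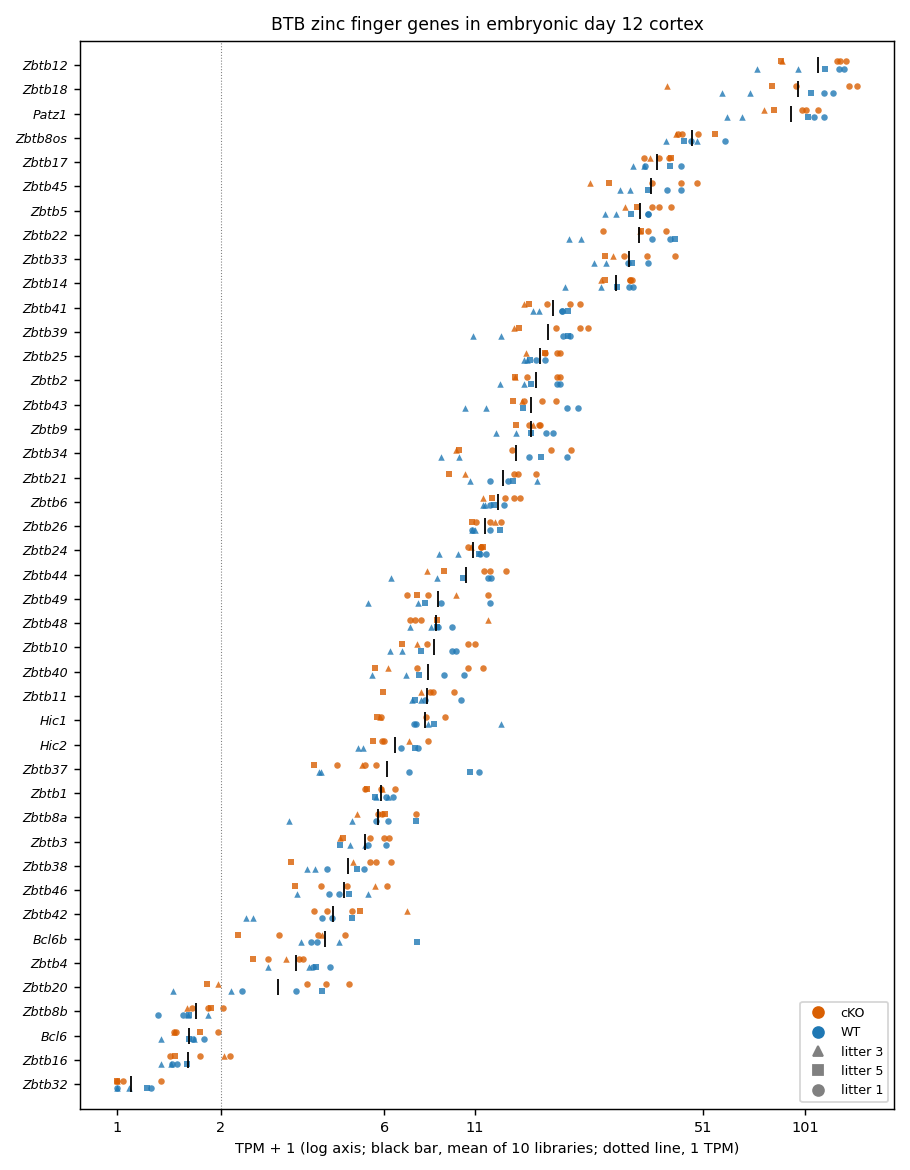
Level of each of the 43 members in each of the 10 libraries, as TPM + 1 on a log axis, in the order of their mean (black bar). Orange marks are cKO libraries and blue marks WT libraries, and the shape gives the litter. The dotted line stands at 1 TPM. Zbtb12, Zbtb18 and Patz1 stand at the top, the 4 members under 1 TPM at the foot, and the triangles of litter 3 are often the lowest marks of a row.

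How steady a member was differed widely across the family. Zbtb1, which acts in lymphoid development, had the smallest coefficient of variation over the 10 libraries, 8.17%, with 4.28 to 5.46 TPM. Zbtb26 followed with 8.97% (9.77 to 12.1 TPM), Zbtb25 with 9.36% (14.3 to 18.6 TPM) and Zbtb6 with 9.85% (10.6 to 13.9 TPM). Among members that passed the filter, the largest were in Zbtb20 (58.4%), Zbtb37 (54.2%), Bcl6b (45.6%) and Zbtb42 (40.7%), all with means under 6 TPM. Zbtb18 stood out among the abundant members with 35.7% and a highest library 3.64 times the lowest. For testing, a gene needed at least 1 TPM in at least 5 libraries. This left 13833 genes, among them 39 members, and left out Zbtb8b, Bcl6, Zbtb16 and Zbtb32.

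No member was called different between cKO and WT. Differences were fitted as log2(TPM + 1) with litter and genotype as terms (limma, Benjamini-Hochberg adjusted p under 0.05 over all 13833 genes). A difference on this scale understates the change of a gene with low TPM. Called members were 0 of 39 higher and 0 of 39 lower, beside 0.00723% of all genes tested called higher and 0.0289% called lower. At an unadjusted p under 0.05 there was 1 member, Zbtb37, on the lower side, or 2.56%, beside 1.24% of all genes higher and 1.11% lower. No member had cKO libraries that all lay on one side of the WT libraries, which held for 0.195% of all genes on the higher side and 0.0867% on the lower side. The fitted difference was above 0 for 18 members and below 0 for 21, with a median of -0.01, and the median of all genes tested was also -0.01. Taken as folds of TPM + 1, the 95% interval excluded a change of more than 1.5-fold for 33 of the 39 and of more than 2-fold for 37. The shares over all genes were 80.1% and 95.7%. For members with low TPM these intervals allow larger folds of TPM itself.

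**Figure D2:**
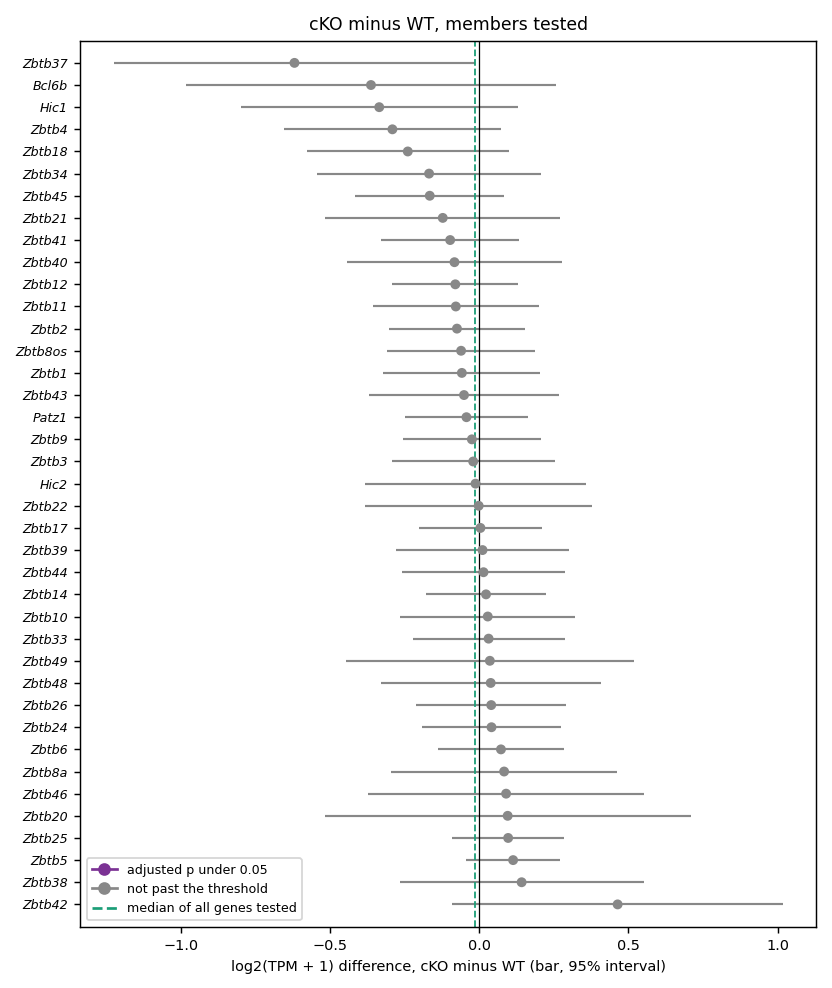
Fitted difference of log2(TPM + 1), cKO minus WT, for the 39 members tested, with 95% intervals. The dashed line is the median of all genes tested, -0.01, and the black line is 0. All points are grey because none passed the adjusted threshold, and the interval of Zbtb37 alone stays on one side of 0.

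The 3 most abundant members had overlapping ranges in the genotypes. Zbtb12, a gene in the class III region of the major histocompatibility complex, had 132, 124, 126, 85.3 and 84.9 TPM in cKO 1 to 5, against 126, 129.6, 72.2, 94.9 and 114 TPM in WT 1 to 5. The highest values of both genotypes are those of litter 1. The difference was -0.08 (SE 0.09, 95% interval -0.29 to 0.13). Zbtb18 had 142, 135, 93.7, 39.1 and 80.0 TPM in cKO 1 to 5, against 113, 121, 56.8, 68.7 and 104 TPM in WT 1 to 5. The genotypes overlapped over most of their range, and cKO 4 held the lowest value of all. With litter in the fit the difference was -0.24 (SE 0.15, interval -0.58 to 0.10), and without the litter term it was 0.00361. Without cKO 4 it was -0.07. Within litters it was -0.66 in litter 3, -0.38 in litter 5 and 0.05 in litter 1. Patz1, which pairs zinc fingers with an AT hook and acts in T cell lineage choice in mice, had 109, 97.8, 101, 75.5 and 80.8 TPM in cKO 1 to 5, against 113, 106, 58.8, 65.3 and 102 TPM in WT 1 to 5. Its difference was -0.04 (SE 0.09, interval -0.25 to 0.16).

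Zbtb8os, the member outside the protein family, had 43.2, 42.0, 48.3, 41.3 and 54.01 TPM in cKO 1 to 5, against 58.01, 45.9, 47.7, 38.6 and 43.8 TPM in WT 1 to 5. It was among the steady genes, with a difference of -0.06 (interval -0.31 to 0.19). Zbtb17 encodes MIZ1, which recruits MYC to promoters that MYC represses, and had 39.4, 36.8, 33.2, 34.6 and 39.95 TPM in cKO 1 to 5, against 43.01, 33.4, 30.8, 33.2 and 39.6 TPM in WT 1 to 5. Its difference was 0.00 (interval -0.20 to 0.21). Of 11 tested partners and targets of MIZ1, such as Myc, Mycn and Cdkn1a, none was called between the genotypes, with a median of -0.06. The smallest p-values on that list were those of Mxd3, a MAX partner that opposes MYC, at -0.18, and Myc at -0.19.

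Zbtb45 and Zbtb20 are close relatives within the family. Zbtb45 had 42.95, 47.99, 35.0, 22.8 and 26.01 TPM in cKO 1 to 5, against 39.02, 42.98, 30.2, 28.1 and 34.2 TPM in WT 1 to 5. Its difference was -0.17 (SE 0.11), with -0.34 in litter 3, -0.38 in litter 5 and 0.02 in litter 1. Zbtb20 had 2.58, 3.72, 3.05, 0.97 and 0.82 TPM in cKO 1 to 5, against 2.31, 1.31, 1.14, 0.45 and 2.95 TPM in WT 1 to 5. The highest value, in cKO 2, was 8.27 times the lowest, in WT 4, and the genotypes overlapped between them. The difference was 0.10 (SE 0.27), and within litters it ran from -1.12 in litter 5 to 0.56 in litter 1.

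Members that read methylated DNA had overlapping ranges in the genotypes. Zbtb33 encodes Kaiso, which binds methylated CpG or the site TCCTGCNA and the adhesion protein p120 catenin, and had 34.03, 28.9, 41.2, 26.9 and 25.3 TPM in cKO 1 to 5, against 29.8, 34.2, 25.6, 23.4 and 30.7 TPM in WT 1 to 5. The difference was 0.03 (interval -0.22 to 0.29). Zbtb38, a Kaiso relative, had 4.44, 5.26, 4.66, 3.87 and 2.20 TPM in cKO 1 to 5, against 4.25, 3.08, 2.57, 2.77 and 3.98 TPM in WT 1 to 5. The other relative, Zbtb4, had 1.75, 2.39, 2.48, 2.10 and 1.48 TPM in cKO 1 to 5, against 3.16, 2.72, 2.63, 1.74 and 2.80 TPM in WT 1 to 5. Zbtb4 is among the 4 tested members with the same sign in all 3 litters, a count with no share over all genes given beside it. Within litters its difference was -0.02 in litter 3, -0.62 in litter 5 and -0.30 in litter 1. The fitted difference of Zbtb4 was -0.29 (SE 0.16, limma unadjusted p = 0.106, adjusted p = 0.9997). Zbtb38 differed by 0.14 (SE 0.18). The catenin genes Ctnnd2, at -0.19, and Ctnnd1, which encodes p120 catenin, at -0.11, had the smallest p-values among 4 tested Kaiso partners and targets, of which none was called.

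Zbtb24, a gene mutated in the human immunodeficiency, centromeric instability and facial anomalies (ICF) syndrome, activates Cdca7 and so bears on DNA methylation at repeats. It had 10.5, 9.54, 10.5, 9.70 and 10.7 TPM in cKO 1 to 5, against 10.9, 10.4, 7.64, 8.80 and 10.3 TPM in WT 1 to 5. WT 3 and WT 4 were the lowest, and the other 8 libraries lay within 9.54 to 10.9 TPM. The difference was 0.04 (interval -0.19 to 0.27). Among the 6 genes of that axis none was called, and the smallest p-values were those of the helicase gene Hells, at -0.12, and the methyltransferase gene Dnmt3b, at 0.13. Zbtb14, which encodes the GC-rich-sequence binder ZF5, had 30.6, 30.2, 30.1, 24.6 and 25.3 TPM in cKO 1 to 5, against 29.9, 30.8, 19.1, 24.6 and 27.6 TPM in WT 1 to 5, a difference of 0.02 (interval -0.18 to 0.22).

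Hic1, a tumour suppressor gene silenced by methylation in human cancers, had 8.03, 6.92, 4.87, 4.84 and 4.71 TPM in cKO 1 to 5, against 6.41, 6.34, 12.1, 7.04 and 7.38 TPM in WT 1 to 5. The high value is WT 3, the library in which the summed mesenchyme markers were highest, and the part of other cells in it was not tested. The fitted difference was -0.33 (SE 0.21, limma adjusted p = 0.9997). Within litters it was -0.81 in litter 3, -0.55 in litter 5 and 0.02 in litter 1, and it was -0.15 without cKO 4 and -0.22 without WT 3. Its paralog Hic2 had 4.55 to 7.02 TPM in the 5 cKO libraries and 4.02 to 6.54 TPM in the 5 WT libraries, a difference of -0.01. Of 7 tested genes reported as HIC1 targets none was called, with a median of 0.01. Sfrp1, a secreted Wnt antagonist gene, stood at -0.16 and the ephrin gene Efna1 at 0.27.

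Zbtb37, whose function is little studied, had the smallest genotype p of the family. It had 3.38, 4.66, 4.26, 4.16 and 2.74 TPM in cKO 1 to 5, against 10.3, 6.06, 2.86, 2.92 and 9.63 TPM in WT 1 to 5. All cKO libraries lay between 2.74 and 4.66 TPM, while the WT libraries split into WT 1, WT 2 and WT 5 above 6 TPM and WT 3 and WT 4, both of litter 3, below 3 TPM. The difference was -0.62 (SE 0.27, limma unadjusted p = 0.0461, adjusted p = 0.9997). Within litters it was 0.41 in litter 3, -1.51 in litter 5 and -0.82 in litter 1, so the sign turned in litter 3. It was -1.02 without cKO 4, and -0.38 without either cKO 5 or WT 5. The first 428 bases of Zbtb37 overlap the start of Gas5 on the opposite strand. Gas5, a noncoding host gene of small nucleolar RNAs, had 204 to 299 TPM, and the labels do not say whether the counting used strand.

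Zbtb42 and Zbtb5 had the next small p-values on the higher side. Zbtb42, the closest relative of Zbtb18 and a gene of skeletal muscle in mice, had 3.07, 2.75, 3.84, 5.98 and 4.08 TPM in cKO 1 to 5, against 2.95, 3.23, 1.49, 1.37 and 3.82 TPM in WT 1 to 5. The difference was 0.46 (SE 0.25, limma unadjusted p = 0.0914). It rests on litter 3, where cKO 4 had the highest value and WT 3 and WT 4 the lowest: within litters it was 1.52 in litter 3, 0.08 in litter 5 and 0.04 in litter 1, and without cKO 4 it was 0.05. Zbtb5, reported in human cells as a repressor of the cell cycle inhibitor gene CDKN1A, had 39.9, 35.05, 36.9, 29.05 and 31.7 TPM in cKO 1 to 5, against 34.1, 34.1, 25.3, 27.3 and 30.4 TPM in WT 1 to 5. Its difference was small and tightly bounded, 0.11 (SE 0.07, interval -0.04 to 0.27), with 0.14, 0.06 and 0.12 in litters 3, 5 and 1. Zbtb25 was the remaining tested member with 1 sign in all 3 litters, and its difference was 0.10 (SE 0.08).

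The 4 members under the filter stayed near the floor of the table in both genotypes. Bcl6, which has its best known role in germinal centre B cells, had 0.96, 0.46, 0.48, 0.46 and 0.74 TPM in cKO 1 to 5, against 0.66, 0.79, 0.67, 0.34 and 0.62 TPM in WT 1 to 5. Zbtb16, which encodes PLZF of germline stem cells and innate-like T cells, had 0.74, 0.42, 1.13, 1.05 and 0.47 TPM in cKO 1 to 5, against 0.44, 0.49, 0.43, 0.34 and 0.60 TPM in WT 1 to 5. Zbtb8b lay at 0.60 to 1.03 TPM in the 5 cKO libraries and 0.31 to 0.84 TPM in the 5 WT libraries. Zbtb32, a lymphocyte gene, was listed at 0 in 5 of the 10 libraries and reached 0.34 TPM in cKO 3. Bcl6b, the relative of Bcl6, passed the filter and had 2.85, 1.95, 3.60, 2.94 and 1.25 TPM in cKO 1 to 5, against 2.83, 2.66, 3.43, 2.42 and 6.48 TPM in WT 1 to 5. Its extremes are the 2 libraries of litter 5, cKO 5 and WT 5, in which the summed level of 8 endothelial markers was also lowest, at 64.8 TPM, and highest, at 152 TPM. The part of vessel cells in its level was not tested. Of 11 tested genes reported as repressed by Bcl6 in cortical progenitors, with its cofactor Sirt1, none was called, with a median of -0.02, and Ccnd2 stood at -0.24 and Hes1 at 0.11.

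**Figure D3:**
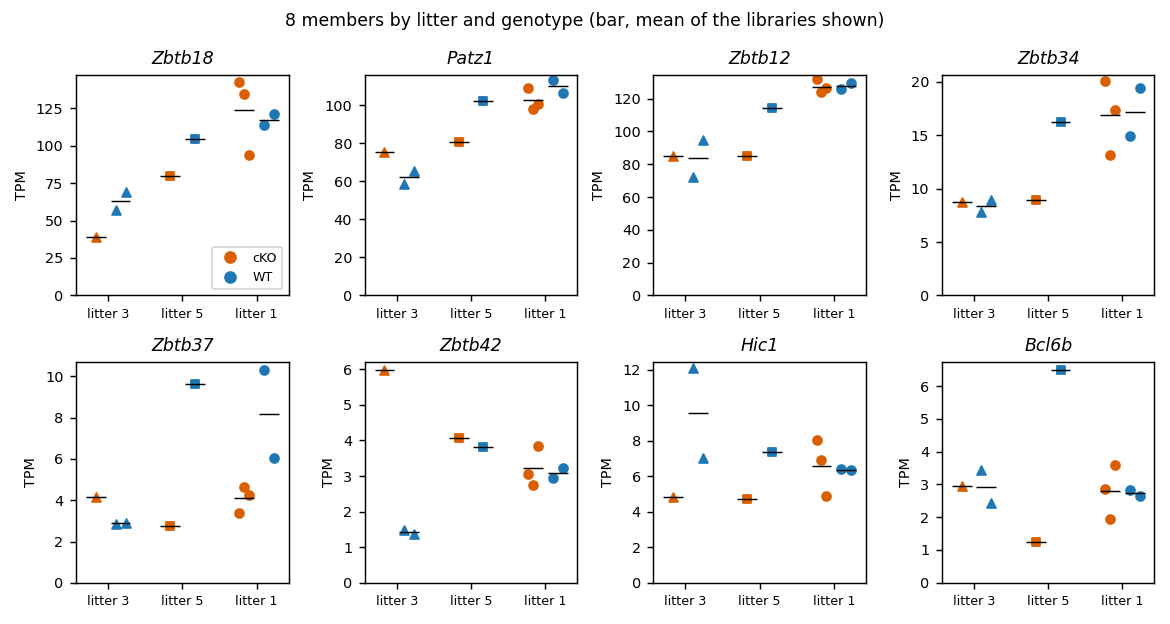
TPM of 8 members in each library, grouped by litter and, within a litter, with cKO (orange) left of WT (blue). The bars are the means of the libraries shown. The upper row holds members that were lower in litter 3 than in litter 1. The lower row holds Zbtb37, Zbtb42, Hic1 and Bcl6b. In Zbtb37 cKO and WT lay apart in every litter, with cKO the higher in litter 3 only. In Zbtb42, Hic1 and Bcl6b they lay apart in some litters and together in others.

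The other 20 tested members had differences between -0.17 for Zbtb34 and 0.09 for Zbtb46. They are Zbtb22, Zbtb41, Zbtb39, Zbtb2, Zbtb43, Zbtb9, Zbtb34, Zbtb21, Zbtb6, Zbtb26, Zbtb44, Zbtb49, Zbtb48, Zbtb10, Zbtb40, Zbtb11, Zbtb1, Zbtb8a, Zbtb3 and Zbtb46. The tightest of them was Zbtb6, at 0.07 (interval -0.14 to 0.28), and the loosest Zbtb49, at 0.04 (interval -0.45 to 0.52). Zbtb46, which marks classical dendritic cells in mice, had 2.30 to 5.09 TPM in the 5 cKO libraries and 2.35 to 4.39 TPM in the 5 WT libraries. Zbtb48, which encodes the telomere binder TZAP, had 6.13 to 11.02 TPM in the 5 cKO libraries and 6.11 to 8.43 TPM in the 5 WT libraries.

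More members were called by litter than by genotype. In litter 3, set against litter 1 in the same fit, 13 of 39 members were called lower and 0 higher (limma, adjusted p under 0.05). That is 33.3% lower, beside 25.8% of all 13833 genes called lower and 5.8% called higher, so the share of lower members was somewhat above the background and was not tested against it. The fitted difference was below 0 for 36 members, and the median of the members was -0.34 where that of all genes was -0.16. The difference of a member is therefore best read against that shift. In 21 members, 53.8%, every library of litter 3 lay below every library of litter 1, beside 30.1% of all genes, and in 0 members every one lay above, beside 7.34%. At an unadjusted p under 0.05 there were 19 members lower and 0 higher, beside 34.1% and 9.2% of all genes. After quantile normalization, which gives all libraries the same distribution, 7 members were called lower and 0 higher, or 17.9%, beside 14.1% of all genes lower and 11.7% higher. Over all genes the split changed with that scaling, to 1612 higher and 1945 lower after quantile normalization, against 803 higher and 3575 lower on the deposited scale. Without WT 3, 8 members were called lower, a count with no share over all genes given beside it. With the 8 globin genes removed and the rest rescaled, the members called lower were again 13, beside 21.9% of all genes lower and 7.16% higher.

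**Figure D4:**
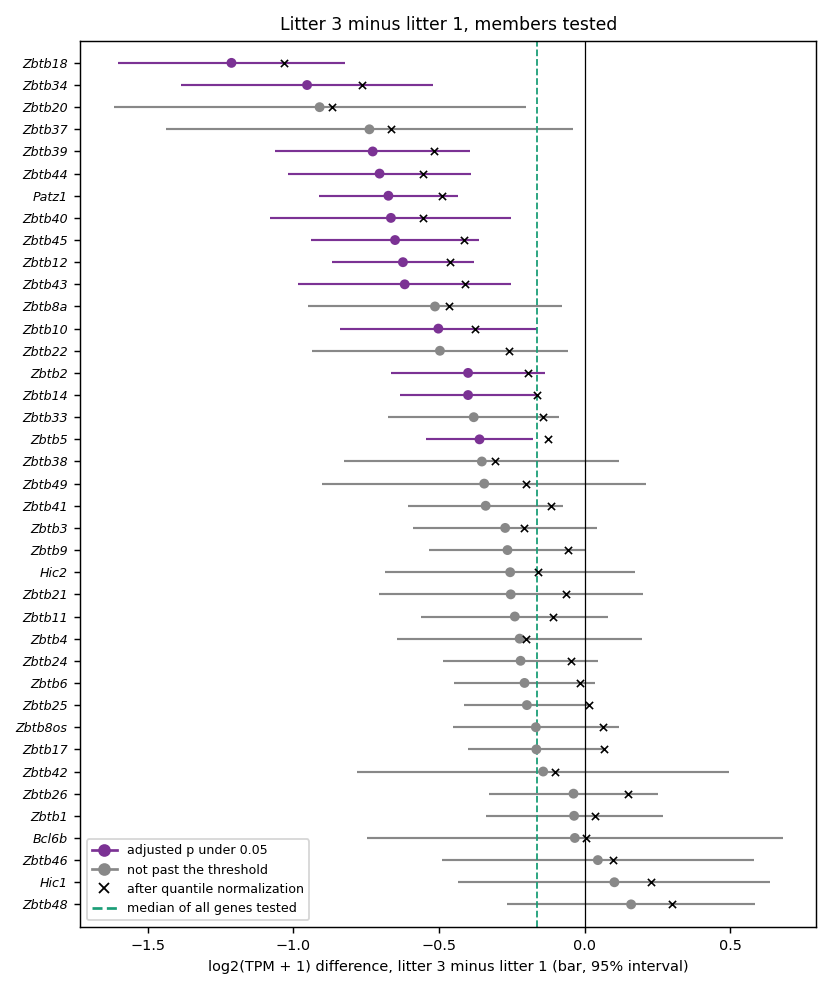
Fitted difference of log2(TPM + 1), litter 3 minus litter 1, for the 39 members tested, with 95% intervals. Purple points passed the adjusted threshold and grey points did not, crosses give the difference after quantile normalization, and the dashed line is the median of all genes tested, -0.16. The 13 purple points lie between -1.21 for Zbtb18 and -0.36 for Zbtb5.

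Zbtb18 fell furthest. Its level was 39.1 to 68.7 TPM in litter 3 against 93.7 to 142 TPM in litter 1, means of 54.9 and 121 TPM, with 80.0 and 104 TPM in cKO 5 and WT 5. No library of litter 3 reached the lowest of litter 1. The difference was -1.21 (SE 0.18, limma adjusted p = 0.00306), which is -1.05 relative to the median gene, and -1.03 after quantile normalization. Taken within genotypes, litter 3 minus litter 1 was -1.61 in cKO and -0.90 in WT. Genes of the neuronal lineage in which Zbtb18 acts were also lower there. The summed level of 6 markers of intermediate progenitors and neurons was 669 to 790 TPM in litter 3 and 1074 to 1477 TPM in litter 1. Within litter 3, cKO 4 held the lowest Zbtb18 level and the highest of these sums, 790 TPM, of which Tubb3 made 612 TPM. The single markers were split. Tbr1 and Dcx were also highest in cKO 4, and Eomes and Neurod1 lay between WT 3 and WT 4. Neurod6 was lowest in cKO 4, at 14.8 TPM against 50.3 and 66.95 TPM in WT 3 and WT 4. The fall was not particular to that lineage. The sum of 6 apical progenitor markers was 2285 to 2473 TPM in litter 3 and 2885 to 3311 TPM in litter 1, though Fabp7 among them stood at 0.19. Of 10 dorsal cortex genes, 9 were called lower. Mesenchyme markers moved the other way, with 7 of 8 called higher in litter 3 on the deposited scale and summed levels of 458 to 1027 TPM there against 207 to 325 TPM in litter 1. The part of these cell types in the level of Zbtb18 and of the other members was not tested.

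Patz1 and Zbtb12, the other abundant members, were lower as well. Patz1 had 58.8 to 75.5 TPM in litter 3 against 97.8 to 113 TPM in litter 1, a difference of -0.67 (SE 0.11, limma adjusted p = 0.00368). Zbtb12 had 72.2 to 94.9 TPM in litter 3 against 124 to 132 TPM in litter 1, a difference of -0.62 (SE 0.11, limma adjusted p = 0.00449). In neither did the litters overlap. After quantile normalization the differences were -0.49 and -0.46. In litter 5 the cKO library was below the WT library in both, with 80.8 and 102 TPM in cKO 5 and WT 5 for Patz1 and 84.9 and 114 TPM in cKO 5 and WT 5 for Zbtb12.

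Among members at 10 to 40 TPM, Zbtb34 changed most. Zbtb34 had 8.72, 7.80 and 8.92 TPM in cKO 4, WT 3 and WT 4 of litter 3, against 20.05, 13.2, 17.3, 14.9 and 19.4 TPM in litter 1. The litters did not overlap, and the difference was -0.95 (SE 0.19, limma adjusted p = 0.00712). Zbtb39 had 13.3, 9.87 and 12.2 TPM in cKO 4, WT 3 and WT 4 of litter 3, against 21.3, 17.99, 22.6, 18.9 and 19.9 TPM in litter 1, a difference of -0.73. WT 3 held the lowest value of both genes. Zbtb43, which lies 18.963 kb from Zbtb34 on chromosome 2, had 14.1, 9.31 and 10.9 TPM in cKO 4, WT 3 and WT 4 of litter 3, against 18.02, 14.3, 16.2, 21.05 and 19.4 TPM in litter 1. Its difference was -0.62, with -0.18 in cKO and -0.94 in WT, and it was not called after quantile normalization (limma, adjusted p = 0.0612).

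Zbtb45, Zbtb5, Zbtb14 and Zbtb2 were called lower on the deposited scale and not after quantile normalization. Zbtb45 had 22.8 to 30.2 TPM in litter 3 against 35.0 to 47.99 TPM in litter 1, a difference of -0.65 and of -0.41 after quantile normalization (limma, adjusted p = 0.0543). Zbtb5 had 25.3 to 29.05 TPM in litter 3 against 34.1 to 39.9 TPM in litter 1 and Zbtb14 had 19.1 to 24.6 TPM in litter 3 against 29.9 to 30.8 TPM in litter 1, differences of -0.36 and -0.40. Zbtb2, a repressor reported to act on p53 pathway genes in human cells, had 13.4, 12.01 and 14.3 TPM in cKO 4, WT 3 and WT 4 of litter 3, against 18.1, 14.7, 18.5, 18.5 and 18.05 TPM in litter 1. Its difference of -0.40 shrank to -0.19 after quantile normalization.

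The remaining called members had less than 13 TPM. Zbtb44 had 6.99, 5.28 and 7.56 TPM in cKO 4, WT 3 and WT 4 of litter 3, against 11.2, 10.7, 12.6, 11.04 and 11.3 TPM in litter 1, and its difference of -0.70 was -0.56 after quantile normalization. Zbtb40 had 5.16, 4.53 and 5.92 TPM in cKO 4, WT 3 and WT 4 of litter 3, against 9.51, 6.46, 10.6, 9.22 and 7.96 TPM in litter 1, a difference of -0.67. Zbtb10, whose human protein binds variant telomere repeats, had 6.45, 5.23 and 5.77 TPM in cKO 4, WT 3 and WT 4 of litter 3, against 9.51, 6.97, 10.04, 8.46 and 8.72 TPM in litter 1. It had the weakest call of the 13, at -0.50 (limma adjusted p = 0.0310), was not called after quantile normalization and was called in 10 of 20 alternative settings. Called in all 20 were Patz1, Zbtb12, Zbtb18, Zbtb34 and Zbtb39.

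Members that did not pass in litter 3 included some with large but scattered differences. Zbtb20 stood at -0.91 (SE 0.32, limma adjusted p = 0.0519) and Zbtb37 at -0.74 (adjusted p = 0.0984). Zbtb33 at -0.38 and Zbtb41 at -0.34 lay just outside the threshold (limma adjusted p = 0.0509 and 0.0543). Zbtb48, Hic1 and Zbtb46 were the 3 members above 0, at 0.16, 0.10 and 0.05. Zbtb17 and Zbtb8os, at -0.17 and -0.17, were at the median of all genes.

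Litter 5, with 1 library of each genotype, gave no called member against litter 1 (limma; 0 of 39 in each direction, beside 0.00723% of all genes higher and 0.0145% lower). At an unadjusted p under 0.05 there were 7 lower members, 17.9%, and 0 higher, beside 13.7% and 5.47% of all genes. The smallest of these p-values was that of Zbtb45, at -0.47 (SE 0.14, limma adjusted p = 0.172), followed by Zbtb12 at -0.38 and Zbtb40 at -0.57. Zbtb18 stood at -0.41 (limma adjusted p = 0.279). Without WT 5, Zbtb12 was called lower, which then compares cKO 5 alone with litter 1.

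The genotype difference was also compared between litters, as its value in litter 1 minus its value in litters 3 and 5 together. No member was called (limma; 0 of 39 in each direction, beside 0% of all genes). At an unadjusted p under 0.05 Zbtb21 (0.71) and Zbtb18 (0.59) were on the higher side and Zbtb48 (-0.66) on the lower side, which is 5.13% and 2.56% of the members, beside 2.64% and 2.33% of all genes. Zbtb21 had genotype differences of 0.23 in litter 1, -0.37 in litter 3 and -0.62 in litter 5. Zbtb48 had -0.28, 0.66 and -0.01, where litter 3 holds the high value of cKO 4.

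The partners through which BTB domains repress, and the reported targets of single members, were read from lists. Of 20 corepressor genes, none was called by genotype, with a median of -0.05. Nacc1, itself a BTB protein gene, stood at -0.13 and the corepressor gene Ctbp1 at -0.11, neither past the threshold (limma adjusted p = 0.9997 for each). In litter 3 against litter 1, 15 of the 20 were called lower, with a median of -0.52, beside 25.8% of all genes and their median of -0.16. Ncor1, a corepressor gene, fell by 0.81 (limma adjusted p = 0.00449). The histone deacetylase gene Hdac3 was not called, at -0.11.

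Genes reported as repressed by Zbtb18 were read in the same way. By genotype 0 of 10 were called, with a median of -0.05, and the smallest p-values were those of Neurog2, at -0.20, and Id4, at -0.09. In litter 3, 6 of the 10 were called lower and 0 higher, with a median of -0.68, where 25.8% of all genes were called lower and 5.8% higher with a median of -0.16. Neurog2 had 111, 133 and 197 TPM in cKO 4, WT 3 and WT 4 of litter 3, against 328, 301, 226, 290.3 and 275 TPM in litter 1. Id4 fell by 0.65, while Id1 at 0.62 and Id3 at 0.92 lay above 0 and did not pass (limma adjusted p = 0.0762 and 0.0729). Neurog2 is also on the dorsal cortex list, of which 9 of 10 were called lower.

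The remaining lists also held called genes in litter 3. Called lower in litter 3 were 7 of 11 genes of the Bcl6 list with a median of -0.67, 5 of 6 of the Zbtb24 axis with -0.39, 7 of 11 of the MIZ1 list with -0.38 and 2 of 4 of the Kaiso list with -0.34. Over all genes 25.8% were called lower and 5.8% higher, with a median of -0.16. Of the 7 HIC1 targets 1 was called lower, Lrp8, a reelin receptor gene, at -0.85. Cdkn1c, which is on the MIZ1 list too, and Ackr3 were called higher, at 0.66 and 0.72. BTB zinc finger genes under other symbols, which were Zbtb7a, Zbtb7b, Gzf1, Zfp131 and Mynn, had 0 of 5 called in litter 3 and 0 of 5 by genotype.

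The members are spread over 14 chromosomes of GRCm38 (GENCODE M21). Only 3 share chromosome 10 with Zbtb7a: Zbtb24 at 39670 kb, Zbtb39 at 46587 kb and Zbtb2 at 76747 kb from it, with genotype differences of 0.04, 0.01 and -0.07. Zbtb25 and Zbtb1, whose upstream stretches are printed above, start 664 bases apart in that annotation, and their levels differ, with 16.1 and 4.87 TPM on average. Zbtb6 and Zbtb26 share 10968 bases on the same strand of chromosome 2, so part of their counts may be split or shared, and they averaged 11.8 and 10.8 TPM. In that annotation Zbtb45 lies within Trim28, which encodes the KAP1 corepressor, on the opposite strand over 6137 bases, and Trim28 had 400 to 691 TPM, so the level of Zbtb45 is uncertain if strand was not used. Zbtb22 overlaps Tapbp on the same strand over 3422 bases, and Tapbp had 11.9 to 19.9 TPM. Zbtb21 overlaps C2cd2 on the same strand over 19242 bases, and C2cd2 had 9.11 to 15.47 TPM. Zbtb9 overlaps Ggnbp1 on the same strand over 35160 bases, and Ggnbp1 had 1.53 to 6.65 TPM. Zbtb12 overlaps the complement gene C2 over 17385 bases on the opposite strand, where C2 had 0.04 to 1.34 TPM. Zbtb8a and Zbtb8os run tail to tail and share 920 bases. The value of each of these genes is uncertain to the extent that reads of the overlap were assigned to its partner.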

How the data were processed

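RNA of 10 cortices from embryonic day 12, 5 cKO and 5 WT, was sequenced after polyA enrichment of RNeasy extracts, per the labels' protocols. The authors deposited TPM for 24814 genes, with 2 decimals, and the submitters' processing notes name cutadapt, featureCounts, DESeq2 and mm10 with no roles. The aligner, the tool behind the TPM, the handling of reads with several matches and the use of strand are not given in the sources used here. TPM keeps no depth, so depth is unknown and no counting interval is given. The design text speaks of 3 cortices for each condition and of 2 litters, and here the labels of the 10 libraries were followed. The table's 5 columns with no library name hold 4 values each and were not used. Of the authors' 7-gene comparison only the gene names were read, and 0 members are among them.

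Genes with at least 1 TPM in at least 5 libraries were tested on log2(TPM + 1) by limma 3.58.1 (R 4.3.3). The model held litter and genotype, with trended moderation, which leaves 6 residual degrees of freedom. The two-sided p-values were adjusted by Benjamini-Hochberg over 13833 genes. The interaction model adds genotype by litter 1 or the other litters. The pipeline was also run on simulated data with known changes. Its noise was drawn independently for each gene, so that run does not bear on tissue differences shared by many genes. The p-values measure the spread between embryos of these litters. Replicate numbers in the labels name animals and mark no shared litter, and the deviations of same-numbered libraries correlated at -0.29 to 0.30, so they were not taken as pairs. The members and gene lists were chosen with earlier results of these data known. Values per library are given for the 5 highest members, members with a reported neural role, the 5 smallest p-values by genotype and by litter 3, and every called member. The single values of Hic2, Zbtb46, Zbtb48, Bcl6b, Zbtb21, Ncor1, Hdac3, Id1, Id3 and Lrp8, and those of neighbouring genes, were chosen after they were seen. Alternatives were the pseudocounts 0.5 and 0.1, no filter, a filter of 5 TPM, quantile normalization, no trend, array weights, each library left out, other litter and genotype terms, single litters, WT libraries alone and removal of the globin genes, the last chosen after seeing the data. Protein features were not analysed here.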

Additional observations from a re-analysis of the deposited data

Results flagged for a closer look

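Within each genotype, the 5 libraries of each member were searched for a highest or lowest value that lies far from the others for the spread of the group. This gave 5 flags in 86 groups, and chance gives about 1 in 20. Zbtb48, which encodes a telomere binder, had 11.02 TPM in cKO 4, where the other cKO libraries had 6.13 to 7.52 TPM. Zbtb11, required for neutrophil development in zebrafish, had 9.06 TPM in WT 1, where the other WT libraries had 6.24 to 6.9 TPM. Hic1 had 12.08 TPM in WT 3, where the other WT libraries had 6.34 to 7.38 TPM. In the same library the sum of 8 mesenchyme markers was 1027 TPM, the highest of all 10, and its part in the value was not tested. Bcl6b had 6.48 TPM in WT 5, where the other WT libraries had 2.42 to 3.43 TPM. The sum of 8 endothelial markers was highest there too, at 152 TPM, and its part was likewise not tested. Zbtb32 was listed at 0.34 TPM in cKO 3, where the other cKO libraries had 0 to 0.04 TPM, a level at the foot of the table.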

How the results depend on the processing

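No member was called between cKO and WT in any of the alternatives run, and the median of the members stayed within the SD of 0.166 between libraries. Single values of cKO against WT were followed only for the members with the smallest genotype p, Zbtb37, Zbtb42, Zbtb4, Hic1, Zbtb5 and Zbtb18. In the alternatives 131 of these values kept their direction and their side of the threshold, and 4 changed direction. These 4 were Hic1 at 0.0219 in litter 1 alone, and Zbtb18 at 0.0536 in litter 1 alone, at 0.00361 without the litter term and at 0.00361 with a replicate block in its place. The replicate block changed no count of called members, with or without litter, and its numbers pair no animals. For litter 3 against litter 1, the 13 members called lower became 7 after quantile normalization and 8 to 15 when 1 library was left out, the 8 without WT 3. The cause was not tested. For the settings with 1 library left out no share over all genes is given, so their counts have no background beside them. Of the single values of the 13 members, 224 were as before and 36 no longer passed, and none changed direction. For litter 5 the count of lower members was 0 to 1 when 1 library was left out, the 1 being Zbtb12 without WT 5. The unknown depth limits what can be said of the 4 members under 1 TPM, which the filter left out. With no filter all 43 members were tested and 0 were called by genotype. Litter 5 has a lone library of each genotype. Litter and any difference in dissection, stage or handling between litters cannot be told apart.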
